A study of Mus musculus with 8 samples.

Results

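The 10 genes described here encode chains of the receptors through which macrophages sense colony-stimulating factors, interferons and interleukins: Csf1r, Csf2ra, Csf2rb, Csf3r, Ifngr1, Ifngr2, Ifnar1, Ifnar2, Il4ra and Il10ra. They were picked out by gene symbol and are 10 of the 16786 genes that had a value in the 7 complete libraries. RNA was taken from CD45+F4/80+ cells, sorted as tumor-associated macrophages (TAMs) from s.c. tumors of the mouse melanoma line B16 on day 14 after injection, with 1 library per mouse. The groups were 4 WT littermates (TAM-WT) and 4 Colec11-/- mice (TAM-KO), all young adult males on the C57BL/6 background, bearing tumors of the same B16 line. Colec11-/- mice carry a germline deletion of the gene for collectin-11, a secreted lectin of the innate immune system, so that the host lacks it in all of its cells and not in macrophages alone. Reads of Colec11 itself numbered 1, 4, 0 and 1 in the TAM-WT mice and 1 in each of the TAM-KO mice, too few to check the genotype in these cells.

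Most of these receptors are built from 2 kinds of chain, one that binds the ligand and one that is shared or needed for signaling. Chains of the cytokine and interferon receptors carry Jak kinases, which phosphorylate Stat factors that then act on target genes in the nucleus, whereas Csf1r is itself a tyrosine kinase and keeps macrophages alive. In tumors, interferon gamma is known for driving macrophages toward antigen presentation and tumor killing, and interleukin-4, interleukin-10 and Csf1 are known for the opposite, tissue-repairing state.

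The comparison of TAM-KO with TAM-WT asked whether loss of collectin-11 in the host was accompanied by other transcript levels of the receptors on TAMs. All 10 genes were expressed in every library with a value, from 13.1 FPKM (fragments scaled by transcript length and by mapped reads) for Csf3r to 284 FPKM for Csf1r. None of the 10 passed an adjusted p of 0.05 between genotypes by edgeR's quasi-likelihood test, where 9.81% of all 12412 tested genes passed. At an unadjusted p under 0.05 the same test gave 1 of the 10, Csf3r, against 30.7% of all genes, and DESeq2 also gave 1 at its adjusted p, again Csf3r, against 18.2% of all genes. Csf3r, Il10ra and Ifngr2 had fitted values above 0 on the log2 scale and the other 7 had values below 0, with a median of -0.14 over the 10 and 0.0016 over all genes tested. The 95% intervals of all 10 log2 fold changes in this edgeR fit lay between -0.80 and 0.99, so that a change of 2-fold or more was outside each of them. For Csf3r this was so only narrowly, with an upper limit of 0.99. Its log2 fold change was 0.70 (SE 0.17) with library size in place of TMM scaling, and no interval was computed for that fit. The table of TAM-KO replicate 1 lists none of the 10 genes, and its value is known only for Csf3r, from the authors' table of the whole series, so each test compared 4 TAM-WT with 3 TAM-KO libraries.

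**Figure D1:**
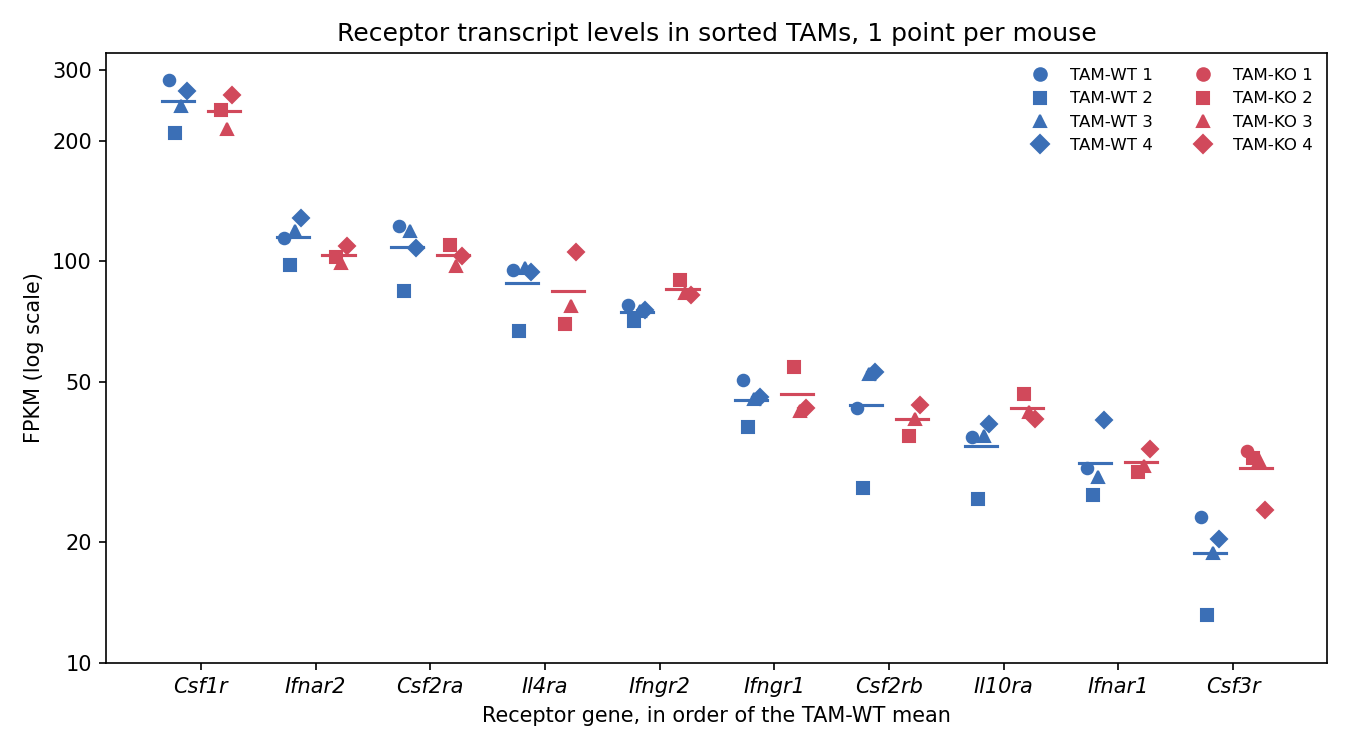
FPKM of the 10 receptor genes on a log axis, ordered by the TAM-WT mean, with 1 point per mouse (blue TAM-WT, red TAM-KO; symbols mark replicate numbers) and lines at the group means. The groups overlap for 7 genes, and all TAM-KO points lie above all TAM-WT points for Csf3r, Ifngr2 and Il10ra.

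Receptors for colony-stimulating factors included the most and the least abundant of the 10. Csf1r, the receptor for Csf1 and Il34 on which most tissue macrophages depend, had 284, 209, 244 and 266 FPKM in TAM-WT replicates 1 to 4 and 238, 213 and 260 FPKM in TAM-KO replicates 2 to 4. The lowest value was that of TAM-WT replicate 2, and the 3 TAM-KO values all fell within the range of the TAM-WT values. The fitted log2 fold change was -0.19 (SE 0.14, edgeR adjusted p = 0.395), and the 95% interval ran from -0.50 to 0.13. The gene lies at chr18:61105572-61131139 on the plus strand (GRCm38.p6).

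Csf2ra, the ligand-binding chain for GM-CSF, had 123, 84.2, 119 and 108 FPKM in TAM-WT and 110, 97.6 and 103 FPKM in TAM-KO. Csf2rb, the signaling chain that the receptors for GM-CSF, interleukin-3 and interleukin-5 share, had 43.2, 27.2, 52.3 and 53.1 FPKM in TAM-WT and 36.6, 40.6 and 43.9 FPKM in TAM-KO. For both genes TAM-WT replicate 2 was the lowest of the 7 libraries, the groups overlapped, and the fits gave log2 fold changes of -0.19 (edgeR adjusted p = 0.418) and -0.24 (edgeR adjusted p = 0.542). Without TAM-WT replicate 2, Csf2ra passed with a log2 fold change of -0.31 (edgeR adjusted p = 0.033). Csf2rb had the widest spread among TAM-WT mice, a coefficient of variation of 27.4% against 3.74% for Ifngr2. Mice carry a near-identical copy beside it, Csf2rb2, at 19.6, 12.3, 24.7 and 23.5 FPKM in the TAM-WT mice and 15.1, 17.02 and 19.99 FPKM in the TAM-KO mice, and reads could have been split between the copies. The difference between genotypes in the mean of log2 CPM (counts scaled to library size, here with TMM scaling) was -0.18 for Csf2rb alone and -0.21 for both copies summed.

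Csf3r, the receptor for G-CSF, which is known above all from neutrophils and their precursors, had 23.0, 13.1, 18.7 and 20.3 FPKM in TAM-WT. In TAM-KO it had 33.6 FPKM in replicate 1, from the table of the whole series, and 32.4, 31.9 and 24.0 FPKM in replicates 2 to 4. All 4 TAM-KO values were above all TAM-WT values, and the means were 18.8 ± 4.18 and 30.5 ± 4.37 FPKM (SD, n = 4 each). On 3 TAM-KO libraries the fit gave a log2 fold change of 0.58 (SE 0.18, edgeR adjusted p = 0.074) and an interval from 0.17 to 0.99. It passed with TAM-KO replicate 1 added (edgeR adjusted p = 0.0495) and without TAM-WT replicate 2 (edgeR adjusted p = 0.020), and its adjusted p lay between 0.014 and 0.203 over 18 alternatives, of which 5 passed. The table that supplied TAM-KO replicate 1 lists genes that the authors selected in their comparison, so this value was not an unselected one. Of 12 neutrophil markers, 5 were tested and 1 rose, against 4.58% of all tested genes. This was S100a8, a calcium-binding protein of neutrophils and monocytes, with a log2 fold change of 2.68 (edgeR adjusted p = 0.048), a call that held in 8 of 17 alternatives. Among the 8 fits that left out 1 library, S100a8 passed in 1, the fit without TAM-KO replicate 1. The defining markers Ly6g, Camp and Ngp had at most 3 counts in every library with a value, but Camp and Ngp had no value in TAM-KO replicate 1. Mmp8 was the most abundant of the list in TAM-WT. The 12 markers summed to 27.3, 35.1, 56.7 and 42.0 FPKM in TAM-WT and 29.2, 32.4 and 51.8 FPKM in TAM-KO replicates 2 to 4. Mmp8, an enzyme of neutrophil granules, made up most of that sum in TAM-WT and had a log2 fold change of -1.22 that did not pass (edgeR adjusted p = 0.060), although it did with TAM-KO replicate 1 filled (edgeR adjusted p = 0.049). The 5 markers with a value in all 8 sample tables (S100a8, S100a9, Ly6g, Retnlg and Stfa2l1) summed to 9.13, 8.45, 9.64 and 8.36 FPKM in the TAM-WT mice and to 163.1, 16.5, 16.6 and 31.3 FPKM in TAM-KO replicates 1 to 4, higher in every TAM-KO library. Groups of 4 against 4 did not overlap for S100a8, S100a9 and, with TAM-KO replicate 1 from the series-wide table, Lcn2, a protein of neutrophil granules. The share of all genes was taken only without TAM-KO replicate 1, where 16.9% had TAM-KO higher with no overlap. S100a8 and S100a9 were at 73.5 and 80.0 FPKM in TAM-KO replicate 1 against at most 15.8 FPKM in any other library. Within TAM-KO the order differed, as replicate 4 had the lowest Csf3r and the next highest marker sum after replicate 1. The sort was for CD45+F4/80+ cells, and the part of neutrophils in the Csf3r values was not tested.

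**Figure D2:**
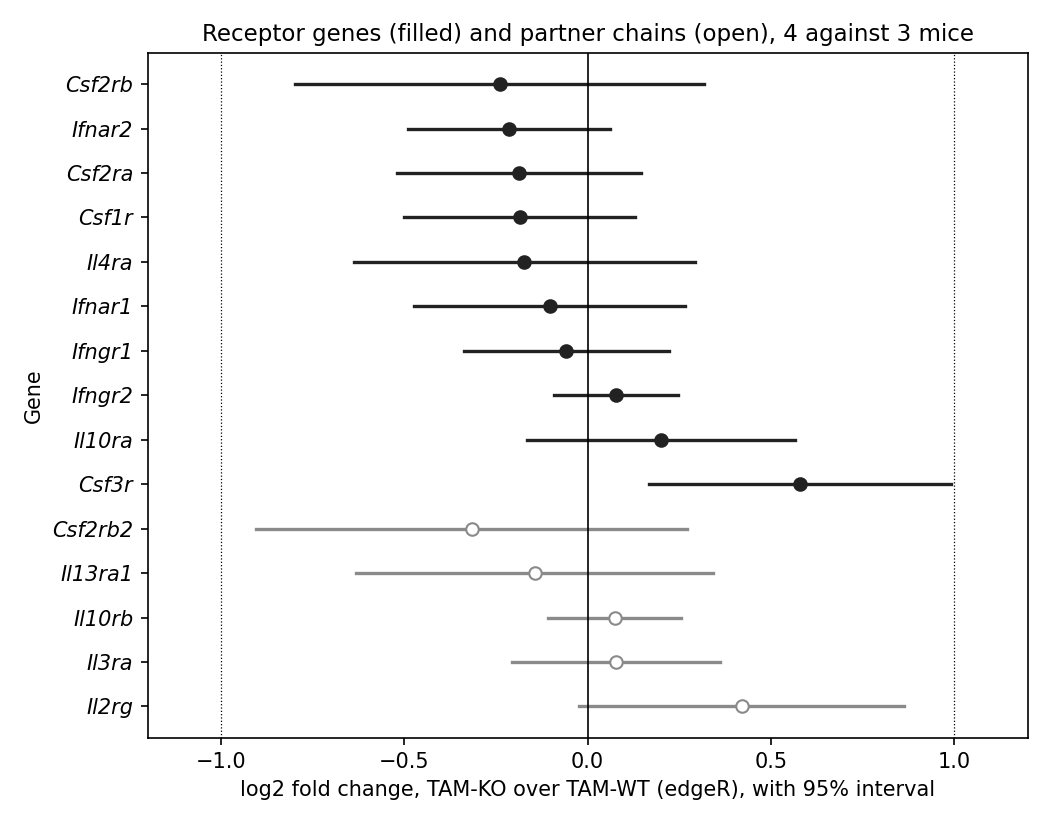
log2 fold changes of TAM-KO over TAM-WT by edgeR with 95% intervals, for the 10 receptor genes (filled) and 5 partner chains (open), from 4 TAM-WT and 3 TAM-KO mice; dotted lines mark 2-fold changes. All intervals lie between the dotted lines, and among the 10 receptors that of Csf3r, from 0.17 to 0.99, is the only one to leave out 0.

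Interferon gamma is bound by Ifngr1, and Ifngr2 completes the receptor and brings in its second kinase. Ifngr1 had 50.5, 38.6, 45.3 and 46.04 FPKM in TAM-WT and 54.6, 42.4 and 43.1 FPKM in TAM-KO, with TAM-KO replicate 2 the highest and TAM-WT replicate 2 the lowest. The fitted log2 fold change was -0.06 (SE 0.12, edgeR adjusted p = 0.785), and the sign turned with the scaling of the libraries, to 0.056 when they were scaled by library size. Ifngr2 had 77.7, 71.0, 75.2 and 75.7 FPKM in TAM-WT and 89.8, 83.4 and 82.2 FPKM in TAM-KO, so that the groups did not overlap. FPKM groups did not overlap for 24.3% of all tested genes, and 16.9% of all tested genes had TAM-KO as the higher group without overlap. The median fold change of all genes was 0.09 on the log2 scale when libraries were scaled by library size and 0.11 on log2(FPKM + 0.1), and with TMM scaling the Ifngr2 groups overlapped, with a log2 fold change of 0.08 (SE 0.07, edgeR adjusted p = 0.511). This was the narrowest interval of the 10, from -0.09 to 0.25.

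Type I interferons bind Ifnar2 with high affinity and Ifnar1 completes the receptor. Ifnar2 had 114, 98.1, 119 and 128 FPKM in TAM-WT and 102, 98.9 and 109 FPKM in TAM-KO, where each TAM-KO value was below 3 of the 4 TAM-WT values. The fit gave -0.21 on the log2 scale (SE 0.12, edgeR adjusted p = 0.264), and limma voom with sample quality weights gave -0.31 (adjusted p = 0.037 from limma), a fit in which 29.2% of all genes passed. Ifnar1 had 30.6, 26.2, 28.9 and 40.3 FPKM in TAM-WT and 29.9, 31.0 and 34.1 FPKM in TAM-KO, and TAM-WT replicate 4 was the highest. The fit gave -0.10 on the log2 scale (SE 0.16, edgeR adjusted p = 0.703), 0.0083 when libraries were scaled by library size, and 0.052 without TAM-WT replicate 4.

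Il4ra, the chain that binds interleukin-4 and also serves interleukin-13, had 94.96, 67.0, 96.4 and 93.97 FPKM in TAM-WT and 69.8, 77.4 and 106 FPKM in TAM-KO. TAM-WT replicate 2 and TAM-KO replicates 2 and 3 were low, TAM-KO replicate 4 was the highest, and the groups overlapped. The fit gave -0.17 on the log2 scale (SE 0.20, edgeR adjusted p = 0.603), and over the fits that left out 1 library it lay between -0.40 and -0.02. Il10ra, the ligand-binding chain of the receptor for interleukin-10, a cytokine that restrains macrophage activation, had 36.6, 25.6, 36.8 and 39.4 FPKM in TAM-WT and 46.6, 42.1 and 40.4 FPKM in TAM-KO. The FPKM groups did not overlap, while TMM-scaled CPM overlapped, and the fit gave 0.20 on the log2 scale (SE 0.16, edgeR adjusted p = 0.434). On CPM, Csf3r was the 1 gene of the 10 whose groups did not overlap, against 24.9% of all genes.

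The order of the levels was that of FPKM, which is scaled by transcript length, so that genes can be set beside each other. Csf1r came first in TAM-WT with 251 ± 32.4 FPKM (SD, n = 4), ranked 361 of the 12412 tested genes, and was above the next gene in 7 of 7 libraries. Ifnar2 with 115 ± 12.6 FPKM, Csf2ra with 109 ± 17.4 FPKM, Il4ra with 88.1 ± 14.1 FPKM and Ifngr2 with 74.9 ± 2.80 FPKM followed, and the ranges of neighbours in this run overlapped. Ifngr2 was above Ifngr1, which had 45.1 ± 4.93 FPKM, in 7 of 7 libraries with no overlap in TAM-WT. Ifngr1, Csf2rb, Il10ra and Ifnar1 lay between 31.5 and 45.1 FPKM on average, and neighbours among them overlapped. Csf3r was last in both groups, ranked 4367 in TAM-WT, and Ifnar1 was above it in 5 of 7 libraries. In all, 4 of the 10 genes held the same place in both genotypes, a count that was 10 without TAM-KO replicate 2 and 2 without TAM-KO replicate 4. The neighbours that changed places were those whose ranges overlapped, Ifnar2 with Csf2ra, Il4ra with Ifngr2, and Csf2rb with Il10ra.

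TAM-WT replicate 2 was the lowest TAM-WT library for 10 of 10 genes, and for 23.9% of all tested genes. The 8 melanoma markers, led by Pmel and Dct, which encode pigment cell proteins, summed to 4484 FPKM in this library, against 2704, 2055 and 2004 FPKM in TAM-WT replicates 1, 3 and 4 and 5178, 4856 and 3904 FPKM in TAM-KO replicates 2 to 4. Of these 8, Sox10, a transcription factor of pigment cells, rose in TAM-KO (log2 fold change 0.76, edgeR adjusted p = 0.029), although the sort was for CD45+ cells. This 1 of 8 stands beside 4.58% of all tested genes higher and 9.81% passing in either direction, and is near the latter. The Sox10 call held in 3 of 8 leave-one-out fits, and Mitf, another such factor, passed with TAM-KO replicate 1 filled (edgeR adjusted p = 0.040). Each of the 8 had at least 30.1 FPKM in every library, and their part in the receptor values was not tested. Of the macrophage markers, 11 of 11 had enough reads to be tested, Lyz2 and Cd68 led the list, and Adgre1, which encodes F4/80, had 186 to 239 FPKM in TAM-WT and 182 to 200 FPKM in TAM-KO. The macrophage list had a median log2 fold change of -0.22, with 1 gene lower, Cd14, and 0 higher, beside the median of -0.14 of the receptors. This 1 of 11 is near the 9.81% of all tested genes that passed. Of 9 monocyte markers, 4 rose, Ly6c2, Plac8 and Ms4a4c among them, and 1 fell, F13a1, the most abundant of them. Of all tested genes, 4.58% were higher and 5.24% lower. The monocyte markers had a median of 0.91 and sums of 575, 475, 746 and 589 FPKM in TAM-WT and 610, 673 and 537 FPKM in TAM-KO. Of 10 dendritic cell markers 1 rose, Xcr1, a share near the 9.81% of all genes, and this call held in 3 of 8 leave-one-out fits. The few tested markers of B cells (3), mast cells and basophils (1), fibroblasts (4) and endothelial cells (5) held no call, with sums of at most 21.05, 3.27, 6.63 and 16.7 FPKM in any of the 7 complete libraries. In such bulk RNA, fewer cells that express a receptor and less of its RNA per cell cannot be told apart.

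**Figure D3:**
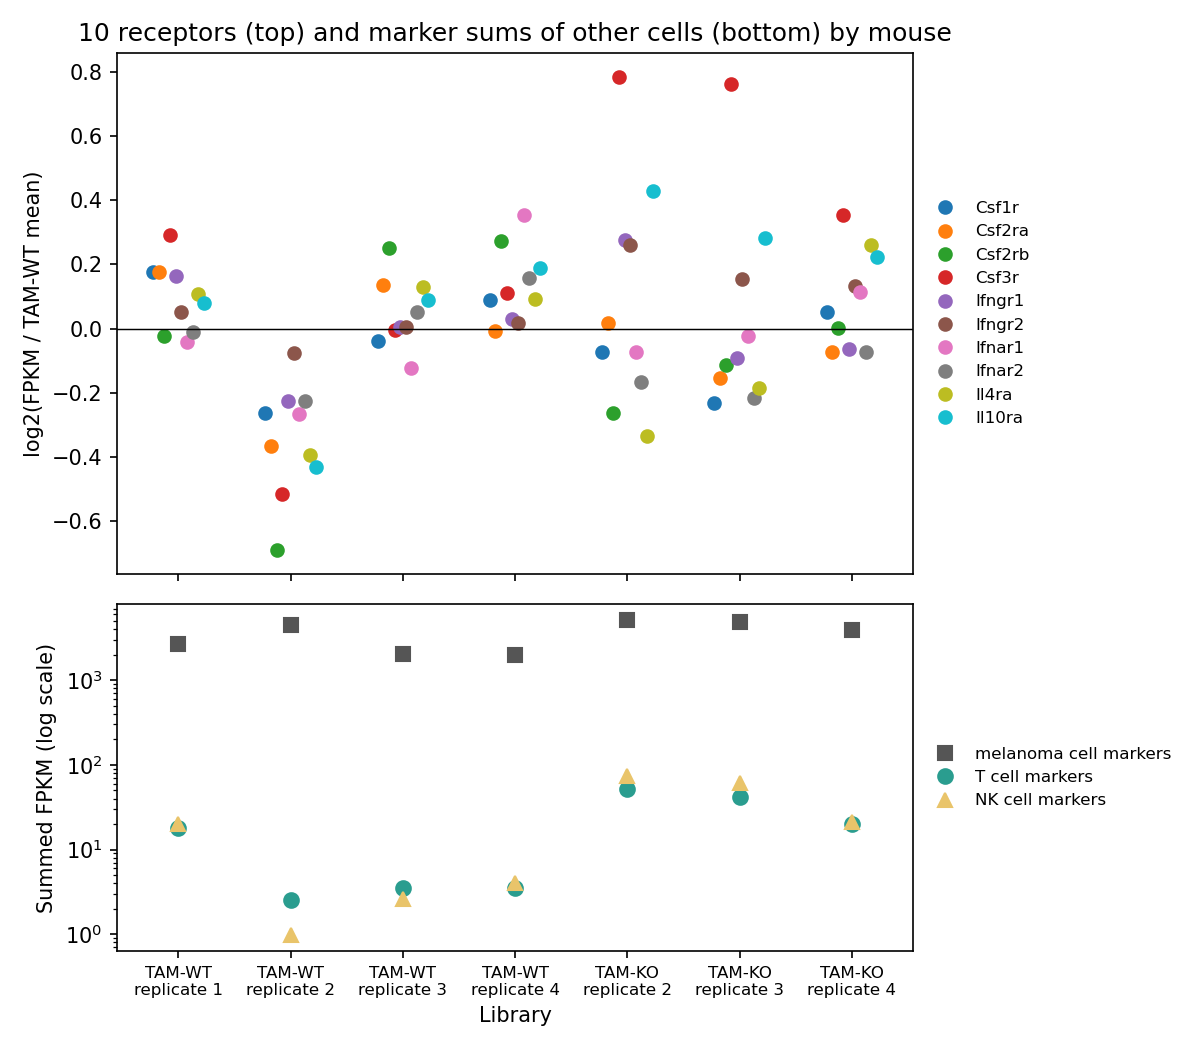
Top, log2 of the FPKM of each receptor gene over its TAM-WT mean, by library; bottom, summed FPKM of melanoma, T cell and NK cell markers on a log axis in the same libraries. All 10 receptors lie below 0 in TAM-WT replicate 2, where the melanoma sum is 4484 FPKM, and the T and NK cell sums are highest in TAM-KO replicates 2 and 3 among the 7 libraries shown.

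Of the 8 ratios between chains, those within a receptor were compared to see whether the balance of its chains differed between genotypes. Ifnar2 transcripts outnumbered Ifnar1 transcripts, with Ifnar1 at 0.272 of Ifnar2 in TAM-WT and 0.305 in TAM-KO (difference of the log2 ratio 0.17, exact two-sided permutation p = 0.229). Ifngr1 stood at 0.5996 of Ifngr2 in TAM-WT and 0.545 in TAM-KO, a difference of -0.14 (exact two-sided permutation p = 0.229), and Csf2ra at 2.53 and 2.57 times Csf2rb. The ratio of Il10ra to Il10rb, the partner chain that it shares with other class II cytokines, was 0.270 and 0.301. Both type I interleukin-4 receptor chains were also measured: Il4ra was 0.861, 1.196, 1.28 and 1.08 times Il2rg, the common gamma chain, in TAM-WT, and 0.579, 0.635 and 0.937 times in TAM-KO. TAM-WT replicate 1 had the lowest of the TAM-WT ratios and lay among the TAM-KO ratios, and the difference of the log2 ratio was -0.64 (exact two-sided permutation p = 0.114). The ratio to Il13ra1, the partner in the interleukin-13 receptor, was 5.44 and 5.16.

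Between receptors, Csf1r was 12.3, 15.9, 13.03 and 13.1 times Csf3r in TAM-WT and 7.36, 6.69 and 10.8 times in TAM-KO. This was the 1 ratio of the 8 whose groups did not overlap, with a difference of the log2 ratio of -0.74 (exact two-sided permutation p = 0.057, the smallest that this test can give; 0.457 after adjustment over the 8 ratios). The ratio of Csf1r to Csf2ra was 2.32 and 2.29, with a difference of -0.02 (exact two-sided permutation p = 0.914). Since this two-sided permutation test, which doubles the smaller tail, cannot reach 0.05 with 4 against 3 libraries, it could not have called a difference in any ratio.

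**Figure D4:**
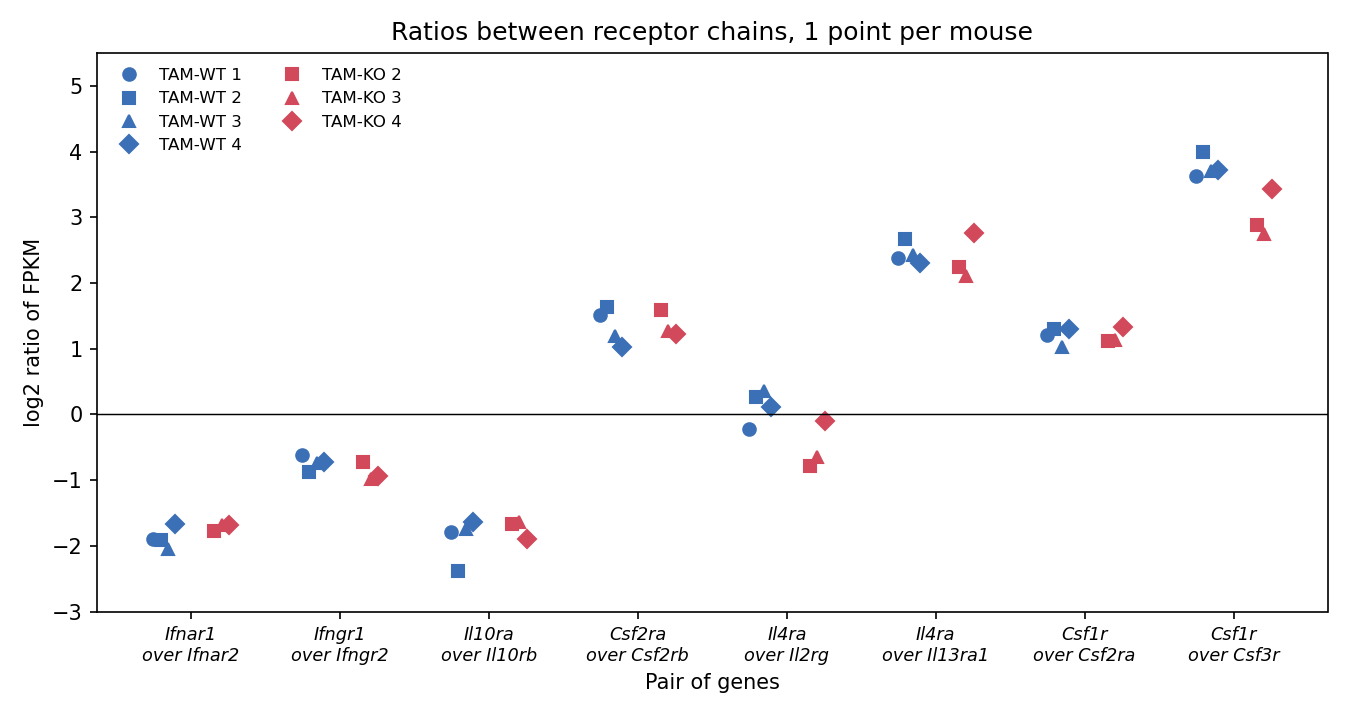
log2 ratio of FPKM between 2 receptor genes for 8 pairs, with 1 point per mouse (blue TAM-WT, red TAM-KO; symbols mark replicate numbers). TAM-KO points lie apart from TAM-WT points for Csf1r over Csf3r and among them, at least in part, for the other 7 pairs.

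Ligands of these receptors had few reads in the sorted cells, apart from Csf1 and Il10. Of 14 ligand genes, 12 had a value, 4 passed the filter on low counts and 0 passed the adjusted p by edgeR, against 9.81% of all tested genes. Csf1 had 6.49, 8.60, 13.7 and 10.6 FPKM in TAM-WT and 9.22, 9.53 and 8.53 FPKM in TAM-KO. Ifng, made chiefly by T and NK cells, had 2.49, 0, 0.12 and 0 FPKM in TAM-WT and 7.77, 6.11 and 2.15 FPKM in TAM-KO replicates 2 to 4, and TAM-WT replicate 1 lay among the TAM-KO libraries (log2 fold change 2.94, SE 1.04, edgeR adjusted p = 0.102). For this gene and for Il10, Igtp, Cxcl9, Mrc1, Il12rb1 and Epor, the value of TAM-KO replicate 1 comes from the series-wide table of genes that the authors selected, and the fits leave it out unless stated. It was 3.59 FPKM for Ifng. Il10 had 6.21, 35.6, 38.5 and 31.0 FPKM in TAM-WT and 8.40, 10.4 and 15.6 FPKM in TAM-KO replicates 2 to 4, with the lowest value in TAM-WT replicate 1 (log2 fold change -1.39, edgeR adjusted p = 0.138). TAM-KO replicate 1 had 25.3 FPKM of Il10, the highest of its group, and with it the log2 fold change was -1.03 (edgeR adjusted p = 0.222). Ifnb1, a type I interferon, had a log2 fold change of -1.38 (edgeR adjusted p = 0.128). Csf2, Csf3, Il34, Il5, Il13, Ifna1, Ifna2 and Ifna4 reached at most 10 counts in any library with a value. Of these, Csf2, Il5, Il13, Ifna1 and Ifna4 had no value in TAM-KO replicate 1.

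The partner chains Csf2rb2, Il2rg, Il13ra1, Il10rb and Il3ra were tested and 0 of 5 passed, against 9.81% of all tested genes. Il2rg had 110, 56.1, 75.5 and 87.0 FPKM in TAM-WT and 121, 122 and 113 FPKM in TAM-KO, so that the groups did not overlap (log2 fold change 0.42, edgeR adjusted p = 0.183). T and NK cells also express Il2rg, and their part in its values was not tested. Of 12 T cell markers, 9 were tested and 1 rose, Foxp3, with a median log2 fold change of 2.51 over the 9. Of 10 NK cell markers, 6 were tested and 2 rose, Nkg7 and Eomes, with a median of 2.66. Of all tested genes 4.58% were higher and 9.81% passed in either direction, and 1 of 9 is near the latter. With TAM-KO replicate 1 filled, Cd8a, Cd8b1 and Lck also passed (edgeR adjusted p from 0.042 to 0.046). The Foxp3 and Nkg7 calls each held in 3 of 8 leave-one-out fits, and the Eomes call in 2 of 8. The T cell markers, of which Cd4 (log2 fold change -0.29, not passed) and Cd3g were the most abundant in TAM-WT, summed to 17.9, 2.51, 3.53 and 3.55 FPKM in TAM-WT and 52.6, 42.2 and 19.96 FPKM in TAM-KO replicates 2 to 4. The NK cell markers, led by Gzmb and Nkg7, summed to 20.2, 0.97, 2.64 and 4 FPKM and to 73.4, 60.8 and 21.4 FPKM, while Ncr1, a defining NK cell receptor, had at most 4 counts in any library.

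Jak kinases and Stat factors, which carry the signals of all these receptors but Csf1r, included genes that rose. Of 11 tested, 3 rose and 0 fell, against 4.58% of all tested genes higher and 5.24% lower. The median log2 fold change of the 11 was 0.23. Stat2, a factor of type I interferon signaling, had 20.9, 10.2, 14.5 and 21.5 FPKM in TAM-WT and 25.6, 33.8, 35.5 and 35.8 FPKM in TAM-KO, with no overlap. It rose by 0.85 on the log2 scale (edgeR adjusted p = 0.044), and Tyk2, a kinase bound to Ifnar1, by 0.26 (edgeR adjusted p = 0.043). Stat2 passed in 12 and Tyk2 in 10 of 18 alternatives, and neither passed when TAM-WT replicate 3 or either of TAM-KO replicates 2 and 3 was left out. Jak1, which binds Ifnar2 and Ifngr1, had a value of -0.16, Stat3, the main factor below Il10ra, 0.23, and Stat6, the factor below Il4ra, -0.01, none of which passed. Of 12 negative regulators, 1 rose, Socs1, an inhibitor of Jak kinases that interferon gamma itself induces, with a log2 fold change of 1.45 (edgeR adjusted p = 0.039), and 0 fell, a share near the 9.81% of all genes. Socs1 had 10.5, 3.20, 6.06 and 5.65 FPKM in the TAM-WT mice and 9.51, 20.4, 22.8 and 13.1 FPKM in the TAM-KO mice, the first of these from the series-wide table and below TAM-WT replicate 1. It did not pass with that value added, nor when any one of TAM-WT replicates 3 and 4 and TAM-KO replicates 2 and 3 was left out. Socs3 and Cish, inhibitors induced by other cytokines of the list, had values of -0.32 and -0.28 that did not pass.

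Genes known as targets of the interferon and interleukin receptors were counted in the same way. Of 15 interferon gamma targets, 7 rose and 0 fell, against 4.58% of all tested genes higher and 5.24% lower. Their fitted values were above 0 in 15 of 15, with a median of 1.54, against 6244 of all 12412 tested genes. Igtp, a GTPase of the interferon-inducible family, had 22.2, 5.92, 8.68 and 13.9 FPKM in TAM-WT and 60.3, 65.7 and 36.4 FPKM in TAM-KO replicates 2 to 4 (log2 fold change 1.99, edgeR adjusted p = 0.027). With 34.05 FPKM in TAM-KO replicate 1, the lowest of its group and still above all TAM-WT values, the log2 fold change was 1.84 (edgeR adjusted p = 0.028). Irf1, a transcription factor, rose by 0.82, Irgm1 by 1.54, Gbp3 by 1.44, Gbp7 by 1.32 and the chemokine gene Cxcl10 by 0.92, each with an edgeR adjusted p between 0.031 and 0.049. Cxcl9 and Gbp2 had larger values, 2.38 and 2.12, that did not pass, and TAM-WT replicate 1 had 57.0 FPKM of Cxcl9 against 1.62, 5.33 and 12.2 FPKM in the other TAM-WT mice. Of 15 type I interferon targets with a value, 2 rose, Oas3 by 1.21 and Ifi44 by 2.10, and 0 fell. This stands beside 4.58% of all tested genes higher and 9.81% passing in either direction. Fitted values were above 0 in 15 of 15, with a median of 0.85.

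Of 12 interleukin-4 targets tested, 4 fell and 0 rose, against 5.24% of all tested genes lower and 4.58% higher. The median of the 12 was -0.87. Mrc1, which encodes the mannose receptor CD206, had 453, 431, 464 and 460 FPKM in TAM-WT and 162, 212 and 289 FPKM in TAM-KO replicates 2 to 4 (log2 fold change -1.13, edgeR adjusted p = 0.022). With 269.7 FPKM in TAM-KO replicate 1 the log2 fold change was -1.07 (edgeR adjusted p = 0.022). Clec10a, a lectin of the same activation state, fell by 1.08, Egr2 fell by 1.73 and Retnla, with at most 28 counts in any library, fell by 1.402 on the log2 scale. Chil3, a chitinase-like protein, and Pdcd1lg2, a ligand of PD-1, had values of 0.82 and 0.88 that did not pass. Of 10 interleukin-10 targets, a list that also holds Il4ra, 1 fell, Cd163, the hemoglobin scavenger receptor, from 6.63, 8.88, 6.59 and 5.29 FPKM in TAM-WT to 2.31, 0.92, 0.96 and 2.18 FPKM in TAM-KO (log2 fold change -2.24, edgeR adjusted p = 0.0093). Cd163 passed in 18 of 18 alternatives, while 1 of 10 is near the 9.81% of all genes.

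Over all 115 tested genes of these lists and of the further receptors described next, 14 rose and 7 fell, which together is 21, against 4.58% of all genes higher and 5.24% lower. The calls moved with single libraries: 44 of the genes passed without TAM-WT replicate 2, but 4 did so when TAM-WT replicate 3 was left out, 1 when TAM-KO replicate 2 was and 2 when TAM-KO replicate 3 was. The calls of all genes moved likewise, from 9.81% to 22.2%, 1.21%, 0.617% and 0.617% in these 4 fits. The 7 interferon gamma targets became 12 without TAM-WT replicate 1, 11 without TAM-WT replicate 2, 1 without TAM-WT replicate 4 and 0 when TAM-WT replicate 3 or either of TAM-KO replicates 2 and 3 was left out, and the 4 interleukin-4 targets became 2, 0 and 0 in these last fits. The 2 type I interferon targets became 0 in the same fits and without TAM-KO replicate 4, 7 without TAM-WT replicate 2, 8 with library size in place of TMM, 9 with DESeq2 and 10 with limma voom. With TAM-KO replicate 1 filled from the series-wide table, 4 interferon gamma targets, 1 type I interferon target, 1 Jak or Stat gene and 0 negative regulators passed. In TAM-WT replicate 1, the TAM-WT library with the highest T and NK cell sums, Igtp and Cxcl9 were also the highest of the TAM-WT values, and the part of T and NK cells in these target levels was not tested.

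**Figure D5:**
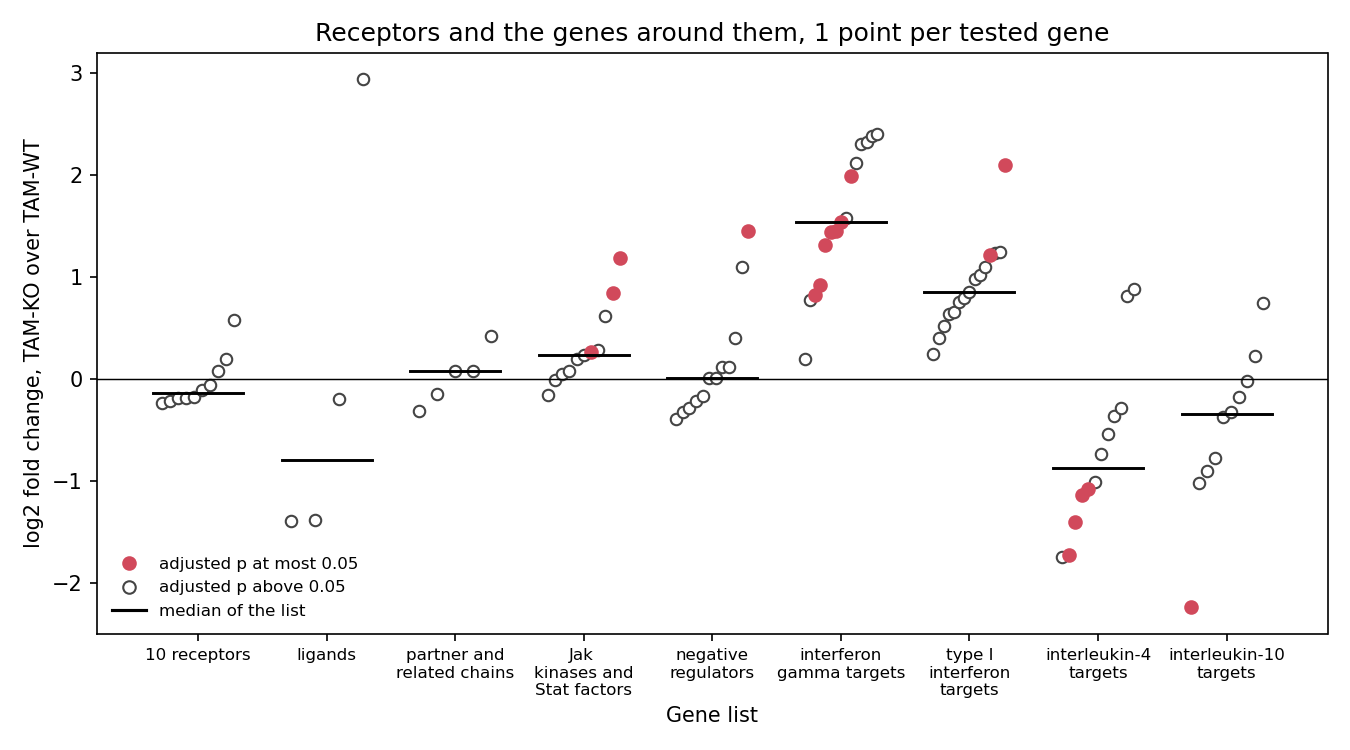
log2 fold changes of TAM-KO over TAM-WT by edgeR for the 10 receptors and 8 lists of ligands, partner chains, signaling genes, inhibitors and targets, with 1 point per tested gene, red where the adjusted p was at most 0.05, and a line at each median. Receptor values lie between -0.24 and 0.58, all 15 interferon gamma targets lie above 0, and 4 interleukin-4 targets in red lie below 0.

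Among 26 further type I and type II cytokine receptors with a value, 18 were tested, 1 rose and 1 fell, near the 4.58% higher and 5.24% lower of all genes. Il12rb1, a chain of the interleukin-12 and interleukin-23 receptors, had 2.99, 0.70, 0.76 and 1.16 FPKM in TAM-WT and 7.10, 8.33 and 3.97 FPKM in TAM-KO replicates 2 to 4, with no overlap (log2 fold change 2.06, edgeR adjusted p = 0.038). With 3.99 FPKM in TAM-KO replicate 1 the log2 fold change was 1.89 (edgeR adjusted p = 0.039). Epor, the erythropoietin receptor, had 3.24, 5.11, 3.44 and 2.76 FPKM in TAM-WT and 0.77, 1.13 and 1.01 FPKM in TAM-KO replicates 2 to 4 (log2 fold change -2.02, edgeR adjusted p = 0.012). With 2.23 FPKM in TAM-KO replicate 1, the nearest to TAM-WT, it was -1.59 (edgeR adjusted p = 0.030). Il2rb, a chain that T and NK cells use, had a value of 2.77 that did not pass (edgeR adjusted p = 0.082). Among 19 receptor kinases and other cytokine receptors of myeloid cells, 17 were tested and 2 passed, near the 9.81% of all genes. Flt1, a receptor for vascular growth factors, rose by 1.86 and Tgfbr2, the ligand-binding receptor for transforming growth factor beta, fell by 0.43. Epor did not pass without TAM-KO replicate 2. Il12rb1, Flt1 and Tgfbr2 did not pass when TAM-WT replicate 3 or either of TAM-KO replicates 2 and 3 was left out, and Il12rb1 and Flt1 also not without TAM-WT replicate 4. Flt1 did not pass with TAM-KO replicate 1 filled either (edgeR adjusted p = 0.065).

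Genes with the most similar pattern were sought for 3 receptors among 7508 genes, by Pearson's r of log2 CPM after the mean of each genotype was taken out, over 7 libraries. Csf1r was followed most closely by Vps9d1, Pla2g15 and Ucp2, with r of 0.994, 0.989 and 0.986. Csf3r was followed by Trps1, Bin2 and Lair1 with r of 0.993, 0.993 and 0.991, and Il4ra by Atg16l1, Sema6b and Morc3 with r of 0.996, 0.994 and 0.991. Over only these 7 libraries, 266, 232 and 286 genes exceeded an r of 0.9 with the 3 receptors, so these are 9 of many.

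On the GRCm38.p6 assembly, 3 of the 10 genes lie in a row on chromosome 16, on the plus strand and with Il10rb among them: Ifnar2 at chr16:91372783-91405589, Il10rb at chr16:91406157-91425834, Ifnar1 at chr16:91485032-91510523 and Ifngr2 at chr16:91547059-91564007. The log2 fold changes of the 4 neighbours were -0.21, 0.07, -0.10 and 0.08, and none passed. Csf2rb at chr15:78325800-78351001 and Csf2rb2 at chr15:78282507-78305721 lie next to each other on opposite strands. The others lie apart, Csf2ra at chr19:61217191-61228461, Csf3r at chr4:126023441-126044975, Ifngr1 at chr10:19591949-19610229, Il4ra at chr7:125552271-125579474 and Il10ra at chr9:45253837-45269149.

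The 250 bases before the annotated start of each gene were searched in the RefSeq promoters (GRCm38.p6) for the letters of 2 motifs, on both strands. The gamma-activated site (GAS), which dimers of Stat factors bind, was searched as TTCNNNGAA, and the interferon-stimulated response element (ISRE), which complexes with Stat2 and Irf factors bind, as TTTC, any 2 bases and TTTC again, which reads GAAA, any 2 bases and GAAA on the other strand. The letters of the 2 motifs can overlap. Sites with another number of bases between TTC and GAA were not searched and do not count as matches. Promoters were found for 7 of the 10 receptors, of which 1, Ifnar2, held a GAS match and 0 an ISRE match. Of 27025 genes with a promoter, 8.13% held a GAS match and 3.46% an ISRE match. Of 10 interferon gamma targets with a promoter, 4 held a GAS match (Gbp5, Gbp7, Igtp and Irf1) and 8 an ISRE match. Of 13 type I interferon targets with a promoter, 3 held a GAS match and 7 an ISRE match. These were 2 and 0 of 10 interleukin-4 targets, and 0 and 2 of 10 Jak and Stat genes. The stretches below are examples, read 5′ to 3′ on the strand of the gene, with bases of a match in capitals. Those of the receptors Ifngr1 (chr10:19591749-19591948, plus strand) and Ifngr2 (chr16:91546859-91547058, plus strand) are the last 200 bases before the start and hold no match. The others are windows of 60 bases picked around a match.
Ifngr1: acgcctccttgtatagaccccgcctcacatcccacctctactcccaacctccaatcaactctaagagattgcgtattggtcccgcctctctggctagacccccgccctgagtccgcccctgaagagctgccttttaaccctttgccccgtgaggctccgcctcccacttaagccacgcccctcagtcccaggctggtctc
Ifngr2: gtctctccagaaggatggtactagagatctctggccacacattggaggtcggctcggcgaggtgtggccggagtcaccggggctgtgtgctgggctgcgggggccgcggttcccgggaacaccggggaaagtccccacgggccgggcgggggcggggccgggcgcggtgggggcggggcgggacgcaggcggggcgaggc
Ifnar2 (chr16:91372543-91372602, plus strand): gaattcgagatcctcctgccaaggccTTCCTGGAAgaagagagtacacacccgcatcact
Irf1 (chr11:53769898-53769957, plus strand): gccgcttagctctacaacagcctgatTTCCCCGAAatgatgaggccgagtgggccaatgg
Igtp (chr11:58199496-58199555, plus strand): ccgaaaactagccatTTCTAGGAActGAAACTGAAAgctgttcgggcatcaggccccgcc
Socs1 (chr16:10785585-10785644, minus strand): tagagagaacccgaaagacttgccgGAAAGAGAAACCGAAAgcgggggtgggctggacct
Cxcl10 (chr5:92349068-92349127, minus strand): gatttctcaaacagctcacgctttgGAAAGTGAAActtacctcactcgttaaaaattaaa

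The window of Irf1 runs from 116 to 57 bases before the start of that gene, and the promoter of Igtp holds a GAS match followed by an ISRE match within the last 60 bases. In Socs1, a pair of ISRE matches overlap. Irf1, Igtp, Socs1 and Cxcl10 are 4 of the 7 interferon gamma targets that rose, and Ifnar2, the 1 receptor with a match, had a value of -0.21 that did not pass. Gbp2 and Gbp5 also held matches but did not pass, and matches were not tested against the changes. A match says only that these letters are present, and binding was not measured.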

How the data were processed

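RNA of sorted TAMs was measured in 4 TAM-WT and 4 TAM-KO mice, grouped by the sample titles. The authors deposited expected counts, which are RSEM estimates per gene with no scaling. FPKM, which the authors also deposited, are scaled by transcript length and mapped reads, and the deposited TPM values enter no result. The submitters' processing notes name HISAT2 2.0.4, Bowtie2 2.2.5, RSEM 1.2.12 and GRCm38.p6. Columns of fold changes and p-values in the table of the whole series hold the authors' own comparison and were left aside. The table of TAM-KO replicate 1 lacks a run of 5311 of 21051 genes, so 4214 of 16786 genes, all 10 receptors among them, had no usable value in it; 629 displaced values and 1 broken line were dropped. From the series-wide table, which lists 3996 genes, came the FPKM of TAM-KO replicate 1 for Csf3r; its values equalled those of the sample table in 2808 of 2809 genes, within 0.011.

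After rounding, expected counts entered edgeR 4.0.16 under R 4.3.3 (TMM, filterByExpr, glmQLFit, glmQLFTest), on 8 libraries where all had a value (9396 genes) and otherwise on 7 (3016 genes), with Benjamini-Hochberg adjustment over all 12412 genes. Reads on genes ranged from 16225362 to 17280267 in the 7 complete libraries, and from 10061535 to 10607640 in all 8 over the 12572 genes that they share. On counts simulated for TAM-KO against TAM-WT with 12409 genes tested, 95% of 100 genes with a log2 change of 1 were called, 100% of 100 genes with a log2 change of 2, and 10 unchanged genes. The simulated counts were drawn independently for each gene, with the same spread between mice (dispersion) for all genes. These shares therefore check the code and do not give the power of the test on the real libraries. Ratios were compared with exact permutation tests (scipy 1.17.1). Within a group, libraries differed beyond sampling noise (chi-square per degree of freedom from 6.16 to 30.0), and none was a repeat. Titles number the mice but do not say that equal numbers pair them. Alternatives were DESeq2 1.42.0, its size factors in edgeR, limma 3.58.1 (voom with quality weights, log2(FPKM + 0.1) and log2(FPKM + 1)), at least 10 counts in every library, no count filter, library size in place of TMM, a replicate block, each library left out, an adjusted p of 0.01, TAM-KO replicate 1 filled, and Csf2rb summed with Csf2rb2. Leaving out libraries for the order of levels was chosen after seeing the data.

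The genes named were the receptors, genes of the pathway and marker lists, and the 3 genes of mean CPM of at least 20 most similar to each of Csf1r, Csf3r and Il4ra. The receptors and the lists were chosen with earlier results of these data known, and the lists serve as description only. No fold change was given for genes that never exceeded 3 counts. Some genes counted in the lists are not reported here by name.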

Additional observations from a re-analysis of the deposited data

Results flagged for a closer look

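In 4 of 35 groups of 4 mice, 1 library stood apart from the other 3 by Dixon's test; chance gives about 1 in 20. Il4ra was at 67.03 FPKM in TAM-WT replicate 2, below the other 3 TAM-WT mice, and Il13ra1 at 10.56 FPKM in the same library. The T cell markers summed to 17.86 FPKM and the NK cell markers to 20.24 FPKM in TAM-WT replicate 1, above the other 3 TAM-WT mice.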

How the results depend on the processing

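Of the 10 receptor genes, 0 passed the adjusted p by edgeR; 1 passed with DESeq2, 1 with library size in place of TMM, 1 with TAM-KO replicate 1 filled (Csf3r each time) and 2 with limma voom (Csf3r and Ifnar2), and from 0 to 2 over the fits without 1 library, 2 (Csf2ra and Csf3r) without TAM-WT replicate 2. Leaving out TAM-KO replicate 1 repeated the main log2 fold change of all 10, as the main fit held no value of it for them. Filling it changed that of Csf3r only. Of 180 log2 fold changes under alternatives, these repeats included, 165 kept their direction and side of the threshold and 7 passed only there. The other 8 changed sign: Ifngr1 was 0.046 on log2(FPKM + 1), 0.047 on log2(FPKM + 0.1), 0.056 with library size and from -0.15 to 0.013 over the fits without 1 library, above 0 without TAM-KO replicate 3, and Ifnar1 was 0.023, 0.024 and 0.0083 in the first 3 of these and from -0.20 to 0.052 over the fits without 1 library, above 0 without TAM-WT replicate 4; the cause was not tested, beyond the shift of all genes with scaling given above. Of the pathway genes, 21 passed, against 43 with DESeq2, 60 with limma voom, 39 on log2(FPKM + 1), 35 on log2(FPKM + 0.1), 1 at an adjusted p of 0.01, and from 1 to 44 without 1 library. All genes passing numbered 1218, against 2253 with DESeq2, 3625 with limma voom, and from 77 (leaving out TAM-KO replicate 2 or 3) to 2755 (leaving out TAM-WT replicate 2) over the fits that left out 1 library. All 64 ratio differences under alternatives moved by less than the SD between mice, and 9 changed sign, in 4 of the 8 pairs. The number of receptors with the same place in both genotypes, 4, lay from 2 to 10 without 1 library. Same-numbered mice correlated at -0.325, 0.02, -0.234 and 0.261, so the numbers were not taken as pairs; with the replicate block 0 receptors, 25 pathway genes and 1080 of all genes passed. Filling TAM-KO replicate 1 gave no ratio a further value, as no pair had both genes listed. Library scaling cancels in a difference of log2 ratios, but gene length does so only where it is the same in every library. Plain counts stood in for the planned scaled counts per length. The difference for Ifnar1 over Ifnar2 was 0.125 on counts against 0.169 on FPKM, and that for Csf1r over Csf3r was -0.78 against -0.74. The receptors had at least 707 counts in each of the 7 complete libraries, and the effect of depth was not tested.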
